A study of Saccharomyces cerevisiae with 6 samples.

Results

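RTA1, RSB1, PUG1 and YLR046C are the 4 budding yeast genes of the RTA1-like family of fungal lipid-translocating exporters, and they were 4 of the 5449 yeast genes measured. They were chosen by family and because, in these same arrays, paralogs differed between the strains in opposite directions; their own strain differences are therefore given as a description, without a test. Family membership was taken from existing naming, and protein sequences were not used here. Each gene is represented by 1 probe set. Transcripts were measured in cells of the strain Y05072, which lacks VPS1, the gene of a dynamin-like GTPase of vacuolar sorting and endocytosis, and in BY4741 wild type cells, with 3 Affymetrix arrays per strain from cultures described as independent. Both strains share the BY4741 background, an a mating type laboratory background with deletions at HIS3, LEU2, MET17 and URA3, both were cultured in supplemented minimal medium at 30 degrees, and each genotype was represented by 1 strain. The comparison asks what changes in the transcriptome when this dynamin is missing under normal growth.

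Proteins of this family cross the membrane several times and are found only in fungi. They are linked to the handling of lipids and lipid-like molecules at the plasma membrane. RTA1 confers resistance to an aminocholesterol when overexpressed. RSB1 confers resistance to sphingoid bases, the backbone of sphingolipids, and is thought to move them outward across the plasma membrane. PUG1 acts in the uptake of protoporphyrin and the export of haem, and YLR046C has no assigned function. In the S288C R64 gene table RTA1 is YGR213C on chromosome VII, RSB1 is YOR049C on chromosome XV, PUG1 is YER185W on chromosome V and YLR046C lies on chromosome XII. Their coding lengths are 954, 1065, 912 and 813 bases, which correspond to proteins of 317, 354, 303 and 270 residues.

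Values are log2 signals. In the deposited table, vps1 deletion arrays exceeded wild type by a median of 0.51 over all genes and 0.48 over the 1746 probe sets whose names are absent from the yeast gene table, so values below are quantile-normalised over the 6 arrays unless stated otherwise; on that scale all genes together had a median difference of -0.04. The background level of an array, the 95th percentile of those 1746 probe sets, lay between 3.53 and 3.59. VPS1 read 2.54, 2.40 and 2.23 on the deletion arrays, below background, and 10.32, 9.98 and 9.95 on the wild type arrays. The 6 markers of a mating type cells had means of 9.47 to 12.43 in the deletion strain and 10.84 to 13.27 in wild type, and the 4 markers of alpha cells had means of 3.95 to 8.65 in the deletion strain and 4.34 to 8.28 in wild type, all of them above background on every array. In RNA of a whole culture, a change in every cell and a change in part of the cells cannot be told apart.

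RTA1 lay far higher and RSB1 far lower in the vps1 deletion strain, while PUG1 lay moderately and YLR046C slightly higher. RTA1 read 8.55, 8.82 and 8.96 in the vps1 deletion strain, against 6.09, 5.79 and 5.43 in wild type. The lowest deletion array exceeded the highest wild type array by 2.46, and the strains did not overlap. The mean was 8.78 ± 0.21 in the deletion strain and 5.77 ± 0.33 in wild type (SD, n = 3 each), a log2 difference of 3.01 ± 0.18 (SE of the fit), or 8.03-fold. Among all 5449 genes this difference held rank 12 from the highest, and 99.8% of genes differed by less in either direction.

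RSB1 ran the other way. It read 4.57, 4.49 and 4.58 in the vps1 deletion strain, against 6.95, 6.89 and 6.45 in wild type. The strains did not overlap, with a gap of 1.87 between them. The mean was 4.55 ± 0.05 in the deletion strain and 6.76 ± 0.27 in wild type (SD, n = 3 each), a log2 difference of -2.22 ± 0.14, or 4.65-fold lower in the deletion strain. This was rank 3 from the lowest of all genes. RSB1 still lay above background in the deletion strain, by 0.96 on the closest array. Its mean there lay between those of the alpha cell markers MF(ALPHA)1 (3.95) and MF(ALPHA)2 (4.89). Since these are strains of the a mating type, a value above background does not by itself show that a transcript was present. Whether the fold of RSB1 is a lower bound was not tested. The differences of RTA1 and RSB1 lay 5.22 apart on the log2 scale.

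PUG1, the porphyrin and haem transporter gene, read 7.93, 8.26 and 8.41 in the vps1 deletion strain, against 7.63, 7.41 and 7.38 in wild type. All deletion arrays lay above all wild type arrays, with a narrow gap of 0.30. The means of 8.20 ± 0.25 in the deletion strain and 7.47 ± 0.13 in wild type (SD, n = 3 each) gave a log2 difference of 0.73 ± 0.14, or 1.65-fold, and 94.2% of all genes differed by less. On the values as deposited, which hold the shift common to all genes, the PUG1 difference was 1.30.

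YLR046C, the member without an assigned function, read 8.80, 8.93 and 8.84 in the vps1 deletion strain, against 8.69, 8.50 and 8.64 in wild type. The arrays did not overlap, but the gap was 0.12. Its log2 difference of 0.25 ± 0.09, or 1.19-fold, came from means of 8.86 ± 0.06 in the deletion strain and 8.61 ± 0.10 in wild type (SD, n = 3 each). It was the smallest of the 4 differences, and 62.8% of all genes differed by less. As deposited it was 0.80, where the median over all genes was 0.51.

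The 4 members thus had no overlap between strains, 3 with the deletion arrays higher and 1 with them lower. Such separation was common: it was seen in 33.9% of all genes, with the deletion arrays higher in 15.0% and lower in 19.0%. Since the members were chosen on this contrast, their count is a description. The signs were the same on the deposited values, where the differences of RTA1 and RSB1 were 3.60 and -1.62. They were also the same after centring the arrays on the median gene or on the probe sets with absent names. Leaving out 1 array cannot turn a sign where the strains do not overlap, so those fits bear only on the size.

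**Figure D1:**
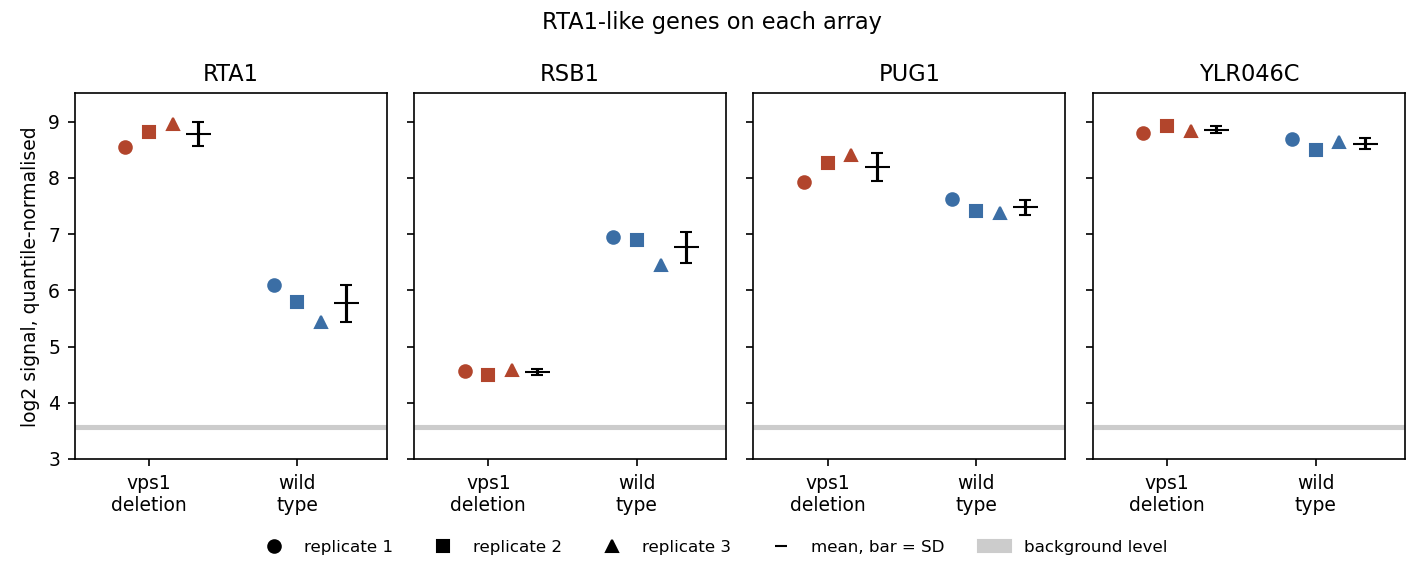
The quantile-normalised log2 signal of each RTA1-like gene (vertical axis) on the 3 vps1 deletion arrays and the 3 wild type arrays, with the mean and SD beside each group and the background level as a grey band. RTA1 sits near 8.78 in the deletion strain and 5.77 in wild type, RSB1 sits near 4.55 in the deletion strain and 6.76 in wild type, and the strains lie close together for YLR046C; levels of different genes come from different probes and are not comparable.

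**Figure D2:**
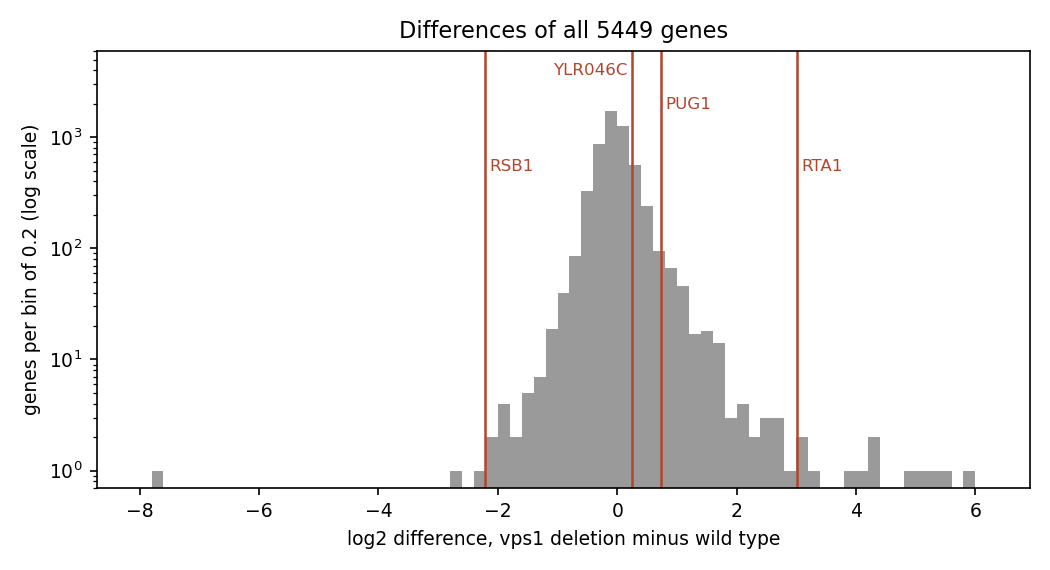
Histogram of the log2 difference, vps1 deletion minus wild type, of all 5449 genes (horizontal axis), with the number of genes per bin on a log scale (vertical axis) and the 4 RTA1-like genes as lines. RTA1 at 3.01 and RSB1 at -2.22 lie in opposite tails, PUG1 at 0.73 lies on the shoulder and YLR046C at 0.25 lies within the bulk.

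Within strains the members varied by different amounts. The SD pooled over both strains was 0.28 for RTA1, 0.20 for both RSB1 and PUG1 and 0.08 for YLR046C, beside a median of 0.15 over all genes. The largest deviations from a strain mean were -0.34 for RTA1 and -0.31 for RSB1, both on wild type replicate 3. On deletion replicate 1, RTA1 and PUG1 were both low, by -0.23 and -0.27, while RSB1 deviated there by 0.02. No deviation of RTA1 or RSB1 approached the gap between the strains.

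The genes whose profile over the 6 arrays was most like each member's, by the distance between profiles after subtracting each gene's mean, are given as a description with no test. For RTA1 they were TIS11, which promotes mRNA decay when iron is scarce, at a distance of 0.58, GSC2, a glucan synthase, at 0.59 and TIR3, a cell wall mannoprotein of anaerobic growth, at 0.75, where the median distance over 5390 genes was 3.79. TIS11 had means of 10.16 in the deletion strain and 7.59 in wild type, and GSC2 had 13.04 in the deletion strain and 10.27 in wild type. For RSB1 they were YBL029W (0.35), the weak acid exporter PDR12 (0.49) and the oligopeptide transporter OPT2 (0.58), against a median distance of 2.72. PDR12 had means of 7.97 in the deletion strain and 9.85 in wild type.

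For PUG1 the most like genes were PAU4, a seripauperin, at 0.28, RRT8 at 0.28 and the iron permease FTR1 at 0.30, against a median of 1.09. FTR1 had means of 12.08 in the deletion strain and 11.31 in wild type. YLR046C was most like VID30 (0.09), a subunit of a ubiquitin ligase of gluconeogenic enzyme decay, YHR131C (0.10) and the glucosyltransferase ALG6 (0.11), with a median of 0.57. A distance grows with the size of a change, so the distances of different members are not comparable. It also holds the strain difference by which the members were chosen.

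**Figure D3:**
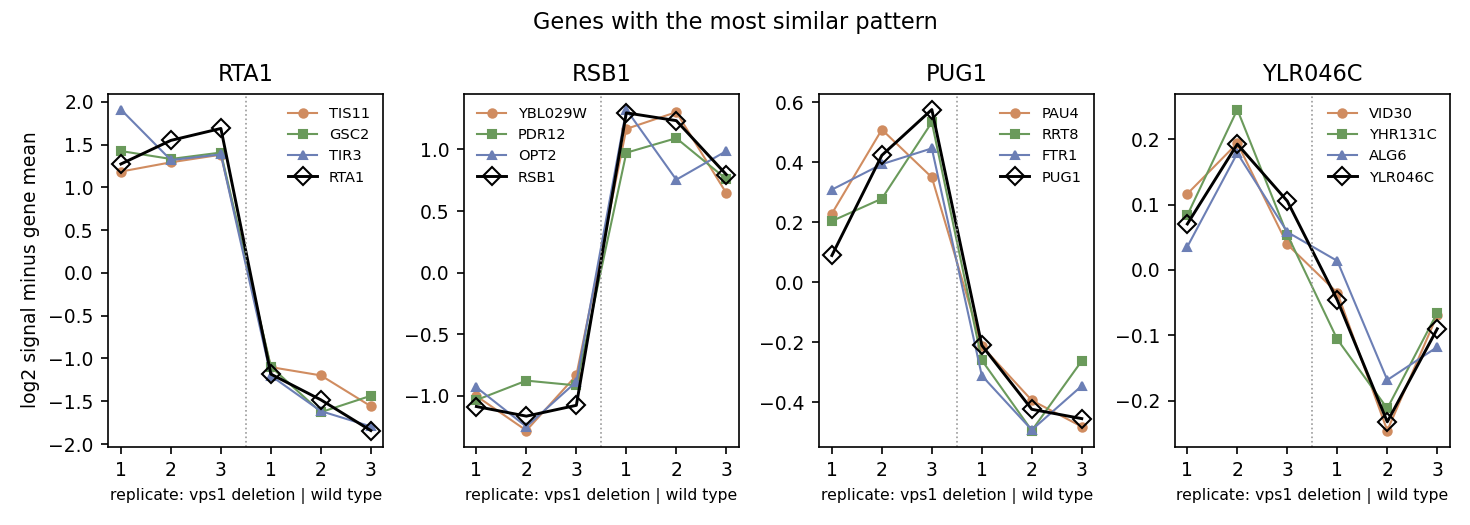
Log2 signal minus the gene's own mean (vertical axis, a separate scale per panel) on the 3 vps1 deletion and the 3 wild type arrays (horizontal axis) for each RTA1-like gene and the 3 genes nearest to it. RTA1 is drawn with TIS11, GSC2 and TIR3, and RSB1 with YBL029W, PDR12 and OPT2.

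The chromosomal neighbours of the 4 genes were tested, since position played no part in the choice of members. Of the 16 nearest genes, 2 on each side of each member, 2 rose, 1 fell and 13 did not pass (limma, adjusted p threshold 0.05). Over all genes 6.77% rose and 6.28% fell. None of the 8 genes around RTA1 and RSB1 passed in limma, where 1 of them, STD1, had an unadjusted p under 0.05. Since 13.0% of all genes passed in either direction, 8 genes are too few to tell none from the general share. RPS0A, a small ribosomal subunit gene upstream of RTA1 on the opposite strand, differed by -0.07 ± 0.10 (adjusted p = 0.693), and ETT1, upstream of RSB1 on the same strand, by -0.002 ± 0.097 (adjusted p = 0.992). STD1, a glucose signalling gene beyond the 3' side of RSB1, differed by -0.38 ± 0.11 (adjusted p = 0.0634), which passed in the fit blocked by replicate number (adjusted p = 0.0200) and, with wild type replicate 3 left out, at an adjusted p of 0.0381. RPS0B, the paralog of RPS0A, is the second gene from YLR046C and differed by -0.20 ± 0.10 (adjusted p = 0.261).

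The genes that passed lay beside PUG1 and YLR046C. TOG1, a transcription activator gene of oleate use that lies upstream of PUG1 on the opposite strand, read 6.70, 6.60 and 6.48 in the vps1 deletion strain, against 5.95, 6.04 and 5.49 in wild type. It rose by 0.77 ± 0.16 (limma adjusted p = 0.0191), beside 0.73 for PUG1, but did not pass without deletion replicate 1, 2 or 3 (adjusted p = 0.0738, 0.0578 and 0.0556). YER187W, the second gene on the other side of PUG1, fell by 0.65 ± 0.13 (adjusted p = 0.0198) and did not pass without deletion replicate 1 or 3 or wild type replicate 2 (adjusted p = 0.0703, 0.0759 and 0.0769), and as deposited its difference was -0.07.

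FRE8, of the ferric reductase family, lies upstream of YLR046C on the same strand. It read 6.06, 6.04 and 5.79 in the deletion strain, against 5.15, 5.34 and 4.93 in wild type, with no overlap. It rose by 0.82 ± 0.13 (limma adjusted p = 0.00791) and passed without any 1 array, the highest adjusted p being 0.0375. STU2, on the other side of YLR046C, differed by -0.14 ± 0.12 (adjusted p = 0.485).

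**Figure D4:**
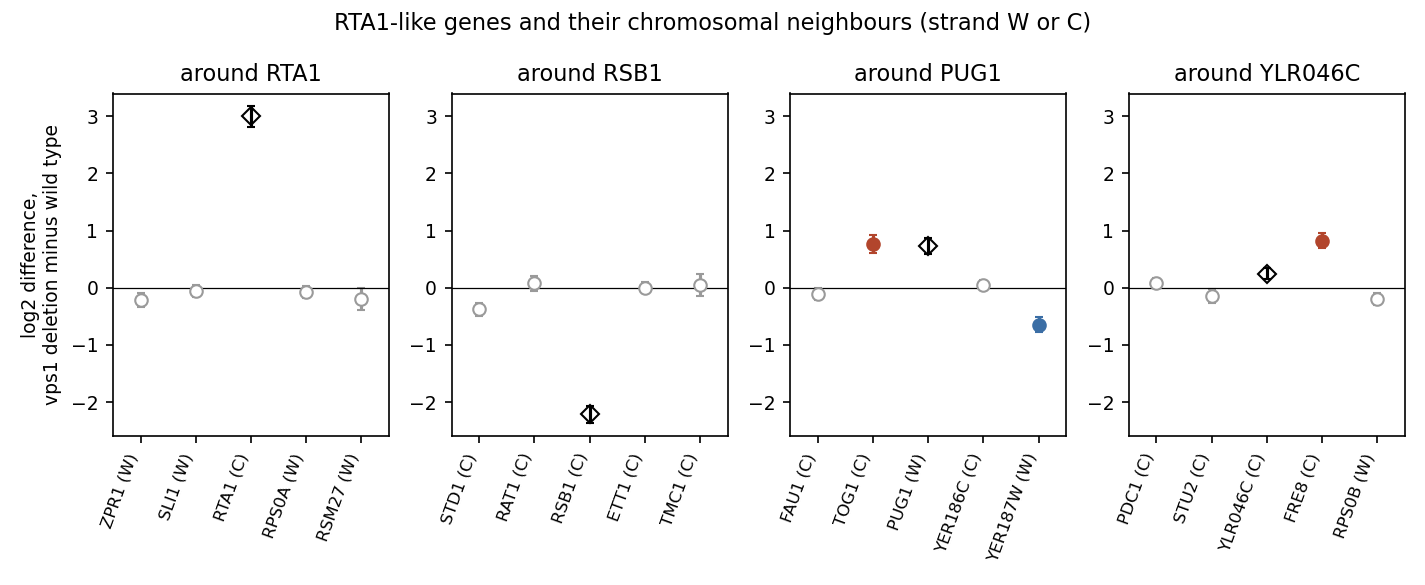
Log2 difference, vps1 deletion minus wild type, with its SE (vertical axis), of each RTA1-like gene (open diamond, no test) and the 2 genes on each side of it in chromosome order (horizontal axis, strand in brackets); filled red points rose, filled blue points fell and open points did not pass. RTA1 at 3.01 and RSB1 at -2.22 have no neighbour past the threshold. TOG1 and FRE8, near PUG1 and YLR046C, rose, and YER187W, near PUG1, fell. Over all genes 13.0% passed in either direction, so the 8 genes around RTA1 and RSB1 are too few to tell none from that share.

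The 7 gene lists that follow were chosen with earlier results of these data known, so their counts are a description. Genes of sphingoid base and ceramide metabolism, the field of RSB1, moved in both directions. Of 17 genes, 3 rose, 2 fell and 12 missed the threshold, beside 6.77% of all genes that rose and 6.28% that fell, and the median difference was -0.02. YSR3, a phosphatase of sphingoid base phosphates, read 12.30, 12.27 and 12.34 in the vps1 deletion strain, against 7.10, 7.38 and 7.28 in wild type, and rose by 5.05 ± 0.10 (limma adjusted p = 1.65e-07). YDC1, a ceramidase, rose by 0.79 ± 0.11 (adjusted p = 0.00425). Its product is a free sphingoid base, the type of molecule that RSB1 protects against. ORM2, an inhibitor of the first step of sphingolipid synthesis, rose by 0.53 ± 0.12 (adjusted p = 0.0293), but passed in only 1 of the 6 fits that leave out an array, that without wild type replicate 1 (adjusted p of the others 0.0571 to 0.106). LAC1, a ceramide synthase subunit, fell by 0.46 ± 0.10 (adjusted p = 0.0239), but lay 0.07 above wild type as deposited and did not pass without deletion replicate 1 or 3 or wild type replicate 2 (adjusted p = 0.0989, 0.0963 and 0.0659). DPL1, the lyase that degrades sphingoid base phosphates, differed by 0.02 ± 0.10 and was chosen after its value was seen. In the blocked fit 4 of the 17 rose and 5 fell, beside 784 and 892 of all 5449 genes. As deposited 11 of the 17 were called higher, beside 4142 of all 5449 genes. LCB4, the sphingoid base kinase, was chosen after its values were seen; it fell by 0.72 ± 0.19 (adjusted p = 0.0494) and passed in only 1 of the 6 fits that leave out an array, that without deletion replicate 2.

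Part of the drug resistance targets of the transcription factors Pdr1 and Pdr3, to which RSB1 has been assigned in earlier work, fell. Of 14 measured, 7 fell, 2 rose and 5 did not pass, with a median difference of -0.40, beside 6.28% of all genes that fell and a median of -0.04. As deposited 3 of the 14 were called lower and 6 higher, beside 52 and 4142 of all 5449 genes. PDR15, a drug exporter of the ABC family, read 8.07, 7.83 and 7.90 in the vps1 deletion strain, against 9.39, 9.15 and 9.03 in wild type. It fell by 1.25 ± 0.12 (limma adjusted p = 8.16e-04). PDR16, which transfers phosphatidylinositol between membranes, fell by 0.80 ± 0.09 (adjusted p = 0.00202), and YGR035C fell by 1.65 ± 0.23 (adjusted p = 0.00379). ICT1, an acyltransferase of phosphatidic acid synthesis, rose by 0.88 ± 0.12 (adjusted p = 0.00340). Each of these 4 genes passed without any 1 array. PDR5, the main drug exporter of the group and chosen after its value was seen, fell by 0.55 ± 0.10 (adjusted p = 0.0126) and did not pass without deletion replicate 3 (adjusted p = 0.0570). The hexose transporter HXT11, also chosen after its value was seen, rose by 0.85 ± 0.20 (adjusted p = 0.0345) and passed in only 1 of the 6 fits that leave out an array, that without wild type replicate 3. On the deposited values the list's median of 0.15 had the opposite sign, but it still lay below the median of 0.51 over all genes. The number that fell was 4 without deletion replicate 3 and 5 to 7 without any other array.

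Genes of sterol uptake and anaerobic growth that respond to the transcription factor Upc2, among which RTA1 has been counted, rose in 6 of 10 cases, beside 6.77% of all genes. The other 4 did not pass, and the median difference was 2.52. This list too was chosen with earlier results of these data known, so its count is a description. UPC2 itself read 10.05, 10.52 and 9.70 in the vps1 deletion strain, against 7.91, 8.57 and 7.88 in wild type. It was chosen after its values were seen, and rose by 1.97 ± 0.25 (limma adjusted p = 0.00269). HES1, related to oxysterol-binding proteins, rose by 4.92 ± 0.11 (adjusted p = 3.55e-07) and TIR3 by 3.07 ± 0.20 (adjusted p = 1.41e-04). The mannoprotein genes TIR1, DAN4 and DAN1, the last of which lay below background in wild type, made up the 6, and each of the 6 passed without any 1 array. The members that did not pass were the sterol importers AUS1 (0.31 ± 0.14) and PDR11 (0.43 ± 0.15), the sterol acyltransferase ARE1 (0.34 ± 0.11) and the mannoprotein TIR4 (0.40 ± 0.17). All 4 passed in the blocked fit (adjusted p = 0.0323, 0.00620, 0.0198 and 0.0349), where 784 of all 5449 genes rose.

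Haem genes, the field of PUG1, rose in 3 of 9 cases and 6 did not pass, beside 6.77% of all genes that rose, with a median difference of 0.01. As deposited 8 of the 9 were called higher, beside 4142 of all 5449 genes. HEM14, protoporphyrinogen oxidase, which makes the protoporphyrin that PUG1 transports, rose by 0.58 ± 0.12 (limma adjusted p = 0.0202). HMX1, the haem oxygenase, rose by 0.54 ± 0.13 (adjusted p = 0.0337), and HEM13, the oxygen-requiring coproporphyrinogen oxidase, by 0.68 ± 0.18 (adjusted p = 0.0494). None of these 3 passed without deletion replicate 1 or 3 or wild type replicate 2 or 3, where their adjusted p lay between 0.0592 and 0.145; HEM13 also missed without deletion replicate 2 (adjusted p = 0.114). Of 9 genes of the oxygen and haem response 1 rose, 1 fell and 7 did not pass, with a median of -0.11. Over all genes 6.77% rose and 6.28% fell, so these counts are near the general share. In the blocked fit 3 of the 9 fell, beside 892 of all 5449 genes, and 4 of the 9 were called higher as deposited. HAP1, the haem-responsive transcription factor, rose by 0.88 ± 0.14 (adjusted p = 0.00730) and passed without any 1 array. AAC3, a mitochondrial carrier of anaerobic growth, fell by 0.56 ± 0.11 (adjusted p = 0.0168), lay 0.02 above wild type as deposited, and did not pass without deletion replicate 3 or wild type replicate 2 (adjusted p = 0.0751 and 0.0512).

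Phospholipid flippases and their partners, which move lipids in the direction opposite to that proposed for RSB1, passed in 1 of 10 cases, near the 13.0% of all genes that passed in either direction, with a median difference of 0.09. FPK1, a kinase that activates flippases, rose by 0.41 ± 0.11 (limma adjusted p = 0.0426), and passed in none of the 6 fits that leave out an array (adjusted p = 0.0598 to 0.129). In the blocked fit 4 of the 10 rose, beside 784 of all 5449 genes. As deposited all 10 were called higher, beside 4142 of all 5449 genes. Of 10 multi-helix membrane proteins of other families (pheromone and glucose receptors, HSP30 relatives and IZH proteins), 1 rose, 1 fell and 8 did not pass, with a median of -0.09. Over all genes 6.77% rose and 6.28% fell, so these counts are near the general share. In the blocked fit 2 of these 10 fell, beside 892 of all 5449 genes, and 6 of them were called higher as deposited. The alpha-factor receptor gene STE2 fell by 0.47 ± 0.09 (adjusted p = 0.0148), lay 0.05 above wild type as deposited, and did not pass without deletion replicate 1 or 3 or wild type replicate 2 (adjusted p = 0.0678, 0.0724 and 0.0664). The a-factor receptor gene STE3 rose by 0.54 ± 0.14 (adjusted p = 0.0466) and did not pass without deletion replicate 1 or 3 or wild type replicate 2 or 3 (adjusted p = 0.0929 to 0.158).

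**Figure D5:**
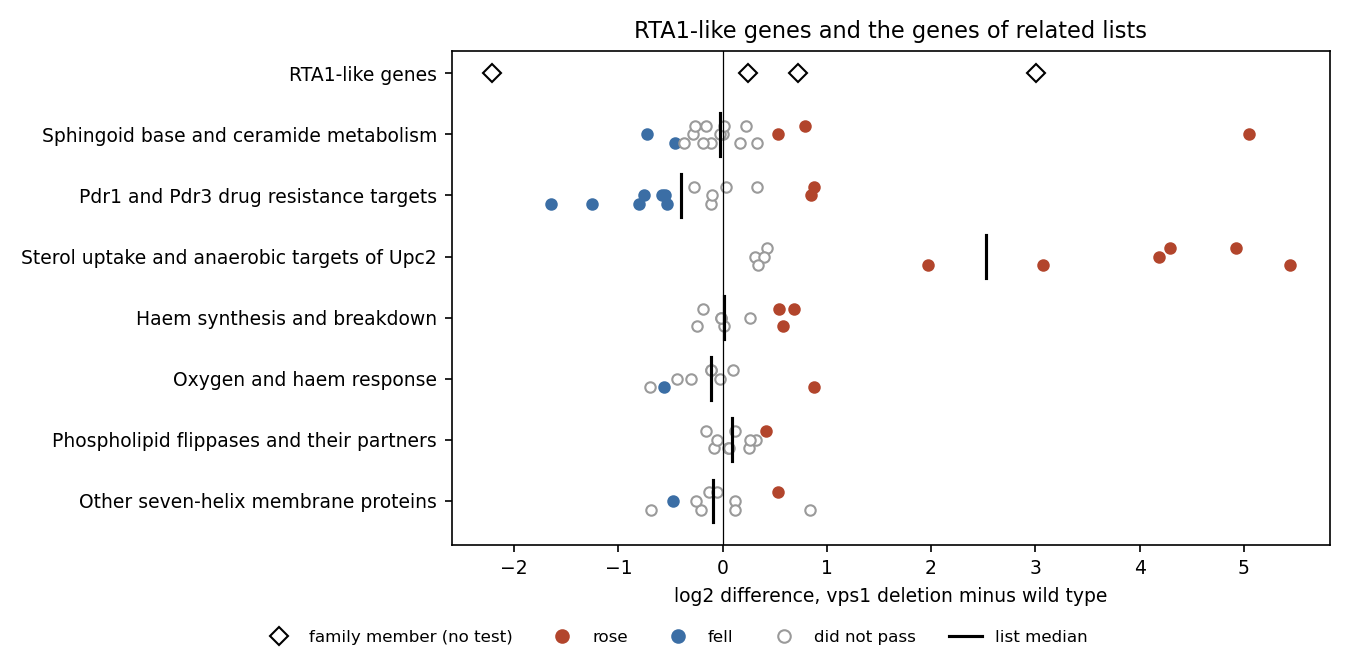
Log2 difference, vps1 deletion minus wild type (horizontal axis), of the 4 RTA1-like genes (diamonds, no test) and of each gene in 7 related lists (rows); red points rose, blue points fell, open points did not pass, and a black bar marks each list's median. The Upc2 targets have a median of 2.52 and the Pdr1 and Pdr3 targets one of -0.40, while the other medians lie between -0.11 and 0.09.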

How the data were processed

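Total RNA was column-purified and 100 ng was labelled by 3' in vitro transcription, per the labels' protocols. The deposited table holds a log2 signal for every probe set on each array. GCOS, RMA and limma appear in the submitters' processing notes; which did what, and the versions, is not given in the sources used here. The number of arrays limits the precision, since arrays carry no read depth.

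All 10928 probe sets were quantile-normalised over the 6 arrays. Probe sets with 1 gene in the platform annotation (7244) were matched to the S288C R64 gene table by gene ID. Where no ID was given, the symbol or the systematic name was used. This gave 5498 probe sets and, taking the highest-mean probe set, 5449 genes. Strands follow the systematic names. No genome build is named for the array, so no coordinates are given. The vps1 deletion was tested against wild type, 3 arrays each, with a 2-sided moderated test per gene (limma 3.58.1, R 4.3.3), and p-values were adjusted by Benjamini and Hochberg's method across all 5449 genes, with 0.05 as the threshold; "rose" and "fell" mean past it, and ± after a difference is its SE. The fit was also run on simulated data with independent noise on each array. That setting lacks the correlation between same-numbered arrays given below, so it cannot show how the test behaves under it.

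The members and the 7 lists were chosen with earlier results of these data known. The lists hold 82 names, of which 80 matched and 79 were measured; DAN2 and DAN3 did not match. Named genes are the members, VPS1, 2 neighbours per side, up to 4 list members with the smallest p past the threshold, and the 3 most like profiles among genes above background in at least 1 strain. Fits without 1 array used the same normalised values. The labels give both strains the same replicate numbers. After subtracting strain means, same-numbered arrays had correlations of 0.67, 0.65 and 0.29 across genes, so a fit blocked by replicate number was also made. The planned comparison of protein and promoter sequences was not analysed here.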

Additional observations from a re-analysis of the deposited data

How the results depend on the processing

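The direction of the 4 family differences was the same on the deposited values and after either centring. Leaving out 1 array could not turn it, since the strains did not overlap for any member. The replicate block could not turn it either, since each replicate number holds 1 array of each strain. Without any 1 array the difference was 2.84 to 3.17 for RTA1, -2.37 to -2.12 for RSB1, 0.62 to 0.86 for PUG1 and 0.19 to 0.28 for YLR046C. As deposited, the differences were 3.60, -1.62, 1.30 and 0.80, since that alternative leaves the shift in by construction. A mean over probe sets was not possible because each member has 1. The replicate block leaves the 4 values as they are.

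Of all genes 711 passed, 369 higher and 342 lower. As deposited 4194 passed, 4142 higher and 52 lower, and in the fit with a replicate block 1676 passed, 784 higher and 892 lower. After centring on the probe sets with absent names 202 passed lower. Without any 1 array the counts were 315 to 791 in all, 195 to 436 higher and 120 to 355 lower. Of the list genes 17 rose and 11 fell, against 55 and 3 as deposited, 27 and 18 with the block, and 10 to 19 and 4 to 10 without any 1 array. Of the neighbours 3 passed, against 13 as deposited and 1 to 4 without any 1 array; the causes were not tested.

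Of 37 genes (VPS1, the neighbours and up to 4 per list) 24 passed, and 13 of these passed without any 1 array. Reversed as deposited were LAC1 (0.071), AAC3 (0.024), STE2 (0.049), ZPR1 (0.32), SLI1 (0.55), RPS0A (0.49), RSM27 (0.34), STD1 (0.16), ETT1 (0.54), FAU1 (0.45), STU2 (0.42) and RPS0B (0.36). SLI1 and ETT1 also turned after centring on the median gene (0.0073 and 0.0036). Without any 1 array SLI1 ranged from -0.12 to 0.0074, ETT1 from -0.051 to 0.051 and TMC1 from -0.069 to 0.25. The block changed 1 call among these 37 genes, that of STD1. Outside these 37, AUS1, PDR11, ARE1 and TIR4 are among the genes that passed with the block and not without it. The least signal over background of a family member was that of RSB1 in the deletion strain, 0.96 on the closest array.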

Other observations

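HSP30, a plasma membrane heat shock protein of the multi-helix list, was chosen after its values were seen. It read 10.19, 8.60 and 9.45 on vps1 deletion replicates 1, 2 and 3, against 10.12, 8.08 and 7.54 on the wild type replicates of the same numbers. The replicates numbered 1 were the highest of both strains and lay within 0.1 of each other. Its difference was 0.84 ± 0.67 (limma adjusted p = 0.460, and 0.0798 in the fit blocked by replicate number).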
